A study of Caenorhabditis elegans with 6 samples.

Results

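The data described here are the array signals of 31 genes of the nematode *Caenorhabditis elegans*, picked by symbol as genes of DNA repair or meiotic recombination. For 1 of them, *rad-54.L2*, no role is given here. The members are the probe sets whose gene symbol, in either of the authors' 2 comparison tables, begins with 1 of 26 stems such as *msh-*, *xpa-*, *rad-*, *brc-*, *smc-*, *him-*, *syp-* or *zim-*. They number 31 of the 29317 probe sets on the arrays, 1 for each gene. All 31 were named in the table of baicalein against DMSO and 0 in that of DMSO against water. A table lists only probe sets that passed the authors' own unadjusted threshold, so these genes were chosen on the difference between baicalein-treated and DMSO-treated worms, and that difference is given below as a description. Absence from the table of DMSO against water does not show a lack of difference there. The yolk gene *vit-2*, with a log2 difference of 8.53 between DMSO and water, is not listed in it either. RefSeq (WBcel235) annotates 62 protein-coding genes with such symbols. The other 31, among them *msh-2*, *mlh-1*, *spo-11*, *rec-8*, *him-8* and *atl-1*, carry no name in the tables and were not analysed here.

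DNA repair removes damaged or mispaired bases, opens crosslinked strands and rejoins broken chromosomes, with a separate set of proteins for each kind of lesion. Meiosis borrows part of the same machinery. Chromosomes pair with their homologues, are held together along a protein axis by the synaptonemal complex, are cut on purpose and are repaired from the homologue so that crossovers form. In the adult hermaphrodite most of these steps take place in the germline, where nuclei divide, enter meiosis and become oocytes, whereas most somatic cells no longer divide.

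Wild-type N2 worms were treated in liquid S medium with 100 µM baicalein, a trihydroxyflavone dissolved in DMSO, with 0.4% DMSO alone or with water, for 48 h at 20 °C starting in the L1 larval stage, and RNA of whole animals was taken 3 days after hatching, an age given as young adult. DMSO is thus shared by the baicalein and DMSO groups and absent from the water group. The study's methods name 3 independent samples per group, and 2 arrays per group, 6 in all, were used here. Whether the arrays of a group came from separate cultures is not stated beyond their numbering as independent trials, so the p-values measure the spread between these arrays, and their number limits the precision. Values are log2 signals made by the authors with RMA. The median probe set had a mean of 1.56, which is read as little signal over background, and for a group whose mean does not exceed it the change is stated as a bound ("at least"). Such a bound is taken between group means and leaves out their spread. Differences were tested with limma in 1 fit of the 3 groups, with Benjamini-Hochberg adjustment over the whole array, and a call needed an adjusted p under 0.05.

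Adult stage was checked with marker genes. The yolk protein gene *vit-2*, made by the adult intestine, had values of 10.49 and 10.32 in baicalein-treated worms, 10.14 and 10.07 in DMSO-treated worms and 1.45 and 1.70 in water-treated worms. The larval cuticle gene *noah-1* had values of 2.16 and 1.85 with baicalein, 1.45 and 1.20 with DMSO and 8.49 and 8.60 in water. The water-treated worms thus showed high molting markers and a yolk marker near background, which goes against the label of young adults, and this holds beside every comparison with water below. A difference of stage and an effect of DMSO cannot be told apart in them.

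All 31 members had their highest mean in DMSO-treated worms. In 22 of them the mean was lowest in water-treated worms, and in 9 it was lowest in baicalein-treated worms. The median over the members of the group means was 2.40 in baicalein-treated worms, 3.98 in DMSO-treated worms and 1.97 in water-treated worms. Between baicalein and DMSO the arrays did not overlap for any of the 31 genes, all lower with baicalein, against 22.3% of all probe sets that lay lower without overlap. limma called 28 of the 31 lower and 0 higher, and without adjustment 30 were lower and 0 higher at p under 0.05. The share called lower was 7.03% over all probe sets (1.73% were called higher) and 37.9% over the 3619 probe sets of the authors' table from which the members were taken. The median log2 difference was -1.45 for the members, -0.43 for that table and 0.05 for all probe sets. In RNA of whole worms, fewer germ cells and less RNA of these genes per cell cannot be told apart. Whether baicalein-treated and DMSO-treated worms also differed in the stage of the germline was not tested.

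The number of calls, over the members and over the whole array, fell when a DMSO or water array was left out. Each such fit leaves 1 array in a group. So does a fit without a baicalein array, where calls over the whole array did not always fall. The cause of the fall was not tested. With either water array left out the members' median log2 difference stayed at -1.45, as water arrays enter this comparison only through the spread. The median was -1.50 without DMSO replicate 1 and -1.62 without DMSO replicate 2. Without DMSO replicate 1, limma called 0 of the 31 members, with 29 lower at an unadjusted p under 0.05 and a smallest adjusted p of 0.0624, and it called 0 of all probe sets in either direction. Without DMSO replicate 2 it called 13 members and 464 of all probe sets lower. It called 15 members and 1046 of all probe sets lower when either water array was left out, and all 31 differences stayed below 0 in each of these fits.

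Between DMSO and water, all 31 members were higher in DMSO-treated worms with no overlap of the arrays, against 41.1% of all probe sets. limma called 29 higher and 0 lower, and without adjustment all 31 were higher at p under 0.05. Over all probe sets 10.9% were called higher and 16.7% lower, and 38.6% of those in the authors' table of baicalein against DMSO were called higher. The median log2 difference was 1.81 for the members, 0.36 for that table and 0.09 for all probe sets. The listing compared baicalein with DMSO, and whether the authors' test also used the water arrays is not stated. The same DMSO arrays stand in both comparisons, so a high value on them moves both. The rise over water is thus not independent of the choice of members. The calls of *rad-54.L*, *rad-23* and *rad-54.L2* were lost when any DMSO or water array was left out, that of *fcd-2* without either DMSO array or water replicate 1, and that of *ung-1* without water replicate 2.

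**Figure D1:**
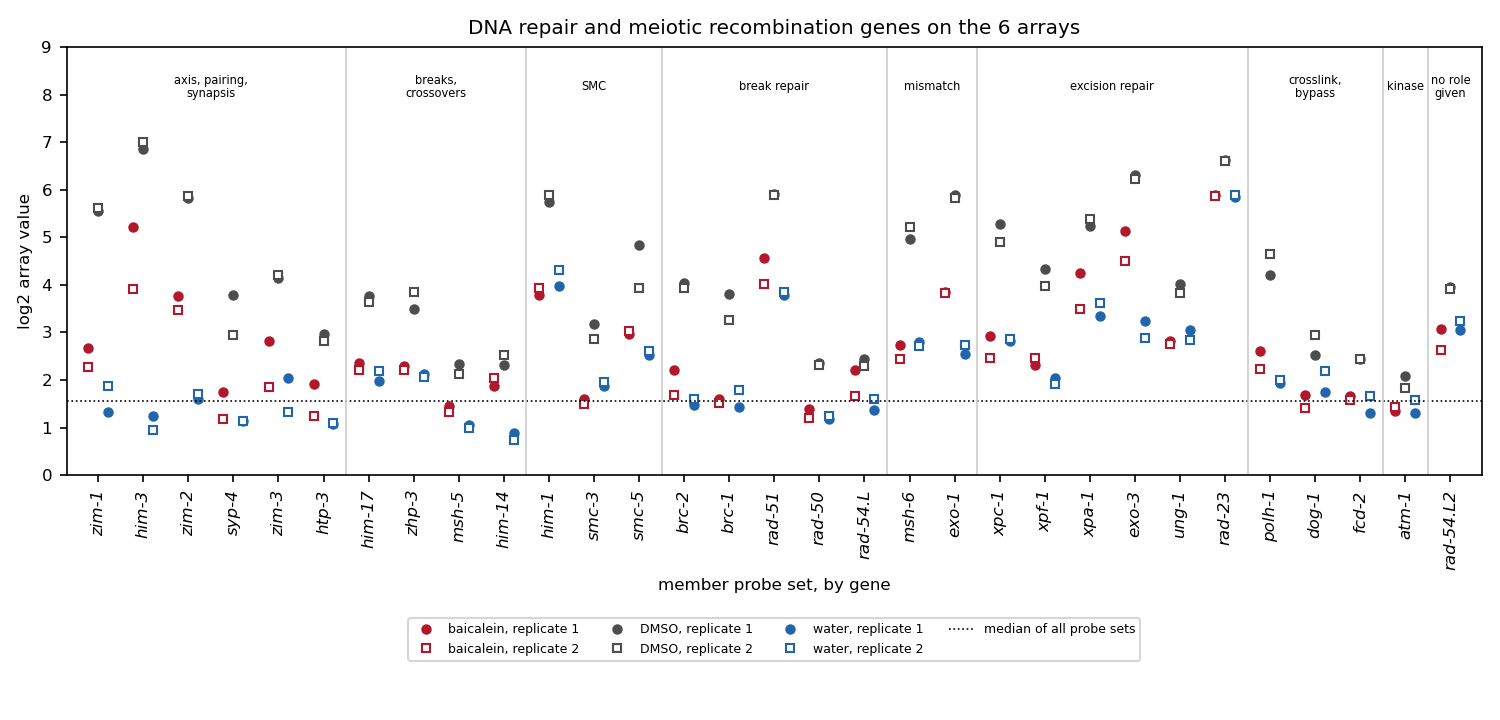
Log2 array value of each member (y axis) by gene (x axis), grouped by role. Filled circles are replicate 1 and open squares replicate 2 of baicalein-treated (red), DMSO-treated (grey) and water-treated (blue) worms, and the dotted line is the median of all probe sets, 1.56. The grey points lie above the red and the blue points for all 31 genes.

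Genes for pairing and synapsis included the member with the largest difference between baicalein and DMSO, *zim-1*, and the one with the largest between DMSO and water, *him-3*. All 6 members of this role were called lower with baicalein, with a median log2 difference of -2.07, and all 6 were called higher in DMSO than in water, with a median of 3.24. *him-3* encodes an axis protein with a HORMA domain that chromosomes need in order to pair and synapse. Its values were 5.22 and 3.90 in baicalein-treated worms, 6.86 and 7.01 in DMSO-treated worms and 1.24 and 0.96 in water-treated worms. The baicalein arrays stood well apart from each other, between those of the other groups. *him-3* was 5.19-fold lower with baicalein (log2 difference -2.38, standard error 0.41), and at least 41.6-fold higher in DMSO than in water, where it lay under the background level (adjusted p = 0.000142 from limma).

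The genes *zim-1*, *zim-2* and *zim-3* encode zinc finger proteins that bind the pairing centres of particular autosomes, and RefSeq places them next to each other on the chromosome with 0 protein-coding genes between them. For *zim-1* the values were 2.68 and 2.28 in baicalein-treated worms, 5.55 and 5.62 in DMSO-treated worms and 1.32 and 1.88 in water-treated worms. *zim-2* had 3.76 and 3.48 with baicalein, 5.82 and 5.86 with DMSO and 1.61 and 1.71 in water. In *zim-3* they were 2.82 and 1.85 with baicalein, 4.15 and 4.22 with DMSO and 2.05 and 1.32 in water. The DMSO arrays of each gene differed by at most 0.08, while *zim-1* and *zim-3* varied more in the other groups. With baicalein the log2 differences from DMSO were -3.11 (standard error 0.25), the largest of any member, -2.22 (0.18) and -1.84 (0.37). Against water, DMSO-treated worms were 15.9-fold higher for *zim-1*, 18.1-fold for *zim-2* and 5.65-fold for *zim-3* (adjusted p = 9.64e-05, 2.42e-05 and 0.00321 from limma).

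*htp-3* encodes another HORMA-domain axis protein, on which the loading of the others depends, and *syp-4* a central component of the synaptonemal complex. *htp-3* was at 1.92 and 1.24 with baicalein, 2.96 and 2.81 with DMSO and 1.07 and 1.09 in water. For *syp-4* the values were 1.74 and 1.17 with baicalein, 3.79 and 2.95 with DMSO and 1.15 and 1.13 in water. Both genes were under the background level in water, and *syp-4* also with baicalein. *syp-4* was at least 3.52-fold lower with baicalein than with DMSO, and *htp-3* was 2.47-fold lower. In DMSO they were at least 3.52-fold and at least 2.51-fold higher than in water (adjusted p = 0.00281 and 0.00238 from limma).

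Among genes that make meiotic breaks and turn them into crossovers there were 4 members. Of these, 3 were called lower with baicalein and *him-14* was not, and all 4 were called higher in DMSO than in water, with medians of -1.13 and 1.59. *him-17* encodes a chromatin protein needed for break formation, and its values were 2.35 and 2.20 in baicalein-treated worms, 3.76 and 3.63 in DMSO-treated worms and 1.97 and 2.19 in water-treated worms. The baicalein and water arrays of this gene lay close together and the DMSO arrays above both, with log2 differences of -1.42 (standard error 0.18) for baicalein against DMSO and 1.62 (standard error 0.18) for DMSO against water. *zhp-3*, whose RING-finger protein marks crossover sites, showed the same order at 2.30 and 2.21 with baicalein, 3.49 and 3.84 with DMSO and 2.12 and 2.07 in water.

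The products of *msh-5* and *him-14*, the worm MSH-4, form the MutS-related pair that promotes crossovers. *msh-5* had 1.46 and 1.32 with baicalein, 2.33 and 2.13 with DMSO and 1.06 and 0.99 in water. For *him-14* the values were 1.88 and 2.05 with baicalein, 2.31 and 2.53 with DMSO and 0.89 and 0.74 in water. These signals were low, with *msh-5* above the background level in DMSO-treated worms alone. *msh-5* was at least 1.59-fold lower with baicalein than with DMSO, whereas *him-14* differed by -0.46 on the log2 scale (95% interval -0.89 to -0.03), which did not pass the threshold. In DMSO, *him-14* was at least 1.82-fold higher than in water (adjusted p = 0.000953, limma).

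Of the SMC proteins, ring-shaped ATPases that hold or fold chromosomes, 3 members were listed, and all 3 were called lower with baicalein and higher in DMSO than in water. *him-1* and *smc-3* encode the SMC subunits of cohesin, the ring that keeps sister chromatids together. *him-1* had values of 3.80 and 3.92 in baicalein-treated worms, 5.74 and 5.89 in DMSO-treated worms and 3.98 and 4.32 in water-treated worms. *smc-3* had 1.60 and 1.49 with baicalein, 3.18 and 2.87 with DMSO and 1.88 and 1.95 in water. In both cohesin genes the baicalein arrays lay below the DMSO arrays. Against water the log2 differences of -0.29 for *him-1* and -0.37 for *smc-3* did not pass the threshold (adjusted p = 0.309 and 0.195 from limma), and their sign turned under 1 renormalization each (0.38 for *him-1* by quantile, 0.18 for *smc-3* by cyclic loess). *him-1* was 3.87-fold lower with baicalein than with DMSO and *smc-3* at least 2.77-fold, and in DMSO they were 3.17-fold and 2.16-fold higher than in water (adjusted p = 0.00111 and 0.00485 from limma).

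*smc-5*, of the related complex that resolves recombination intermediates, had 2.96 and 3.02 with baicalein, 4.84 and 3.93 with DMSO and 2.53 and 2.61 in water. Its DMSO arrays differed by 0.92, the widest gap between DMSO replicates among the members, and both stayed above all other arrays. The log2 differences were -1.39 for baicalein against DMSO and 1.81 for DMSO against water, each with a standard error of 0.30 (adjusted p = 0.00494 for DMSO against water, limma). Its call between baicalein and DMSO was lost after repeated quantile or cyclic loess normalization.

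Genes that mend double-strand breaks by homologous recombination gave 5 members. Of these, 4 were called lower with baicalein, and all 5 were called higher in DMSO than in water, with medians of -1.60 and 1.94. *rad-51* encodes the recombinase that pairs the broken end with its template, and was at 4.56 and 4.01 in baicalein-treated worms, 5.90 and 5.88 in DMSO-treated worms and 3.78 and 3.84 in water-treated worms. *brc-2*, the BRCA2 relative that loads it, had 2.21 and 1.69 with baicalein, 4.04 and 3.93 with DMSO and 1.48 and 1.61 in water. *brc-1*, the BRCA1 relative of a ubiquitin ligase, had 1.60 and 1.52 with baicalein, 3.81 and 3.27 with DMSO and 1.42 and 1.78 in water. For all 3 genes the DMSO arrays stood clear of the rest, and for *brc-1* the baicalein and water arrays overlapped.

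The log2 differences of baicalein from DMSO were -2.03 for *brc-2*, -1.98 for *brc-1* and -1.60 for *rad-51*, with standard errors of 0.22, 0.24 and 0.22. As *brc-1* was near background with baicalein, it is given as at least 3.94-fold lower. In DMSO *rad-51* was 4.22-fold, *brc-1* 3.83-fold and *brc-2* at least 5.38-fold higher than in water (adjusted p = 0.000771, 0.0015 and 0.000388 from limma). *rad-50*, part of the complex that processes broken ends, was near background outside DMSO, at 1.40 and 1.21 with baicalein, 2.37 and 2.31 with DMSO and 1.17 and 1.23 in water. It was at least 1.72-fold lower with baicalein than with DMSO, and at least 1.72-fold higher in DMSO than in water (adjusted p = 0.00308 from limma).

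*rad-54.L*, listed in the table as *rad-54*, encodes an ATPase that works with RAD-51 filaments. Its values were 2.21 and 1.67 with baicalein, 2.45 and 2.30 with DMSO and 1.37 and 1.60 in water. It showed the smallest difference of any member between baicalein and DMSO, -0.43 (95% interval -0.99 to 0.12), which did not pass the threshold. In DMSO it was at least 1.76-fold higher than in water (adjusted p = 0.03 from limma).

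Mismatch repair was represented by *msh-6*, a subunit of the protein that recognizes mispaired bases, and *exo-1*, an exonuclease that removes the mispaired strand and also trims broken ends. The values of *msh-6* were 2.73 and 2.43 in baicalein-treated worms, 4.97 and 5.22 in DMSO-treated worms and 2.80 and 2.71 in water-treated worms. Its baicalein arrays reached the level of the water arrays, while those of *exo-1* lay between the other groups, at 3.86 and 3.83 with baicalein, 5.89 and 5.82 with DMSO and 2.55 and 2.73 in water. *msh-6* was 5.73-fold lower with baicalein (log2 difference -2.52, standard error 0.19) and *exo-1* 4.03-fold lower (-2.01, 0.17). In DMSO *msh-6* was 5.06-fold and *exo-1* 9.28-fold higher than in water (adjusted p = 0.000278 and 4.69e-05 from limma).

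Excision repair, which cuts out single damaged bases or short damaged stretches, had 6 members. All 6 were called lower with baicalein than with DMSO and higher in DMSO than in water, with medians of -1.45 and 2.00. *xpc-1*, the damage sensor of nucleotide excision repair, was at 2.92 and 2.47 in baicalein-treated worms, 5.28 and 4.91 in DMSO-treated worms and 2.82 and 2.86 in water-treated worms. *xpa-1*, which checks the lesion, had 4.24 and 3.49 with baicalein, 5.24 and 5.39 with DMSO and 3.34 and 3.62 in water. *xpf-1*, a nuclease gene that also acts on meiotic crossovers, had 2.32 and 2.47 with baicalein, 4.33 and 3.97 with DMSO and 2.05 and 1.92 in water. In *xpc-1* and *xpa-1* the baicalein and water arrays overlapped. The baicalein group was 5.29-fold lower than DMSO for *xpc-1*, 3.36-fold for *xpf-1* and 2.73-fold for *xpa-1*, with log2 standard errors of 0.23, 0.19 and 0.28. In DMSO they were 4.78-fold, 4.49-fold and 3.56-fold higher than in water (adjusted p = 0.000619, 0.000397 and 0.00338 from limma).

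The base excision genes *exo-3*, for the endonuclease that cuts at sites without a base, and *ung-1*, for the glycosylase that removes uracil, were both members. *exo-3* had 5.14 and 4.51 with baicalein, 6.30 and 6.23 with DMSO and 3.25 and 2.88 in water. For *ung-1* the values were 2.82 and 2.76 with baicalein, 4.02 and 3.84 with DMSO and 3.04 and 2.84 in water. The baicalein arrays of *exo-3* lay above the water arrays, whereas those of *ung-1* lay below them by less than the fit's interval (-0.57 to 0.27 around -0.15). Baicalein-treated worms were 2.72-fold and 2.2-fold below DMSO for these genes, and DMSO-treated worms 9.19-fold and 1.98-fold above water (adjusted p = 0.000251 and 0.00674 from limma). *rad-23*, whose relatives in yeast and mammals bind XPC proteins and carry substrates to the proteasome, was at 5.89 and 5.87 in baicalein-treated worms, 6.63 and 6.60 in DMSO-treated worms and 5.85 and 5.89 in water-treated worms. Its replicates were close in every group, and the DMSO arrays were 1.68-fold above water (adjusted p = 0.0133 from limma) and the baicalein arrays 1.67-fold below DMSO.

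The genes of crosslink repair and of damage-tolerant synthesis were *polh-1*, for DNA polymerase eta, *dog-1*, for a helicase that protects G-rich tracts, and *fcd-2*, for the worm FANCD2. *polh-1* was at 2.61 and 2.24 in baicalein-treated worms, 4.20 and 4.66 in DMSO-treated worms and 1.94 and 1.99 in water-treated worms. *dog-1* had 1.68 and 1.42 with baicalein, 2.51 and 2.94 with DMSO and 1.75 and 2.19 in water. *fcd-2* had 1.67 and 1.59 with baicalein, 2.45 and 2.45 with DMSO and 1.31 and 1.66 in water. All 3 were called lower with baicalein than with DMSO, *polh-1* 4.01-fold, *dog-1* at least 2.25-fold and *fcd-2* 1.77-fold. In DMSO *polh-1* was 5.51-fold higher than in water (adjusted p = 0.000443 from limma), and *fcd-2* at least 1.86-fold (0.00934), whereas *dog-1* differed by 0.76 on the log2 scale and missed the threshold (adjusted p = 0.0617 from limma).

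*atm-1*, for the kinase that signals double-strand breaks, had 1.36 and 1.44 with baicalein, 2.08 and 1.83 with DMSO and 1.31 and 1.57 in water. Its means with baicalein and in water lay under the background level. The DMSO mean was thus at least 1.32-fold above each, a bound between means that leaves out their spread. *atm-1* passed the threshold in neither comparison. The measured log2 difference was -0.56 (95% interval -1.01 to -0.11) for baicalein against DMSO and 0.51 (95% interval 0.06 to 0.96) for DMSO against water. The gene written *rad-26* in the table is *rad-54.L2* in RefSeq and is given no role here. It had 3.06 and 2.63 with baicalein, 3.95 and 3.92 with DMSO and 3.05 and 3.25 in water, and was 2.12-fold lower with baicalein than with DMSO. In DMSO it was 1.72-fold higher than in water (adjusted p = 0.031 from limma).

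Between baicalein and water fewer members passed the threshold. limma called 6 of the 31 higher and 0 lower, the same counts as at an unadjusted p under 0.05. Over all probe sets 6.79% were called higher and 15.4% lower, and 18.2% of those listed for baicalein against DMSO were called higher. The arrays did not overlap for 17 members that lay higher and 4 that lay lower, against 37.8% and 31.3% of all probe sets. The median log2 difference was 0.36 for the members and 0.07 for all probe sets. The 6 were *him-3*, *zim-2*, *zim-1*, *exo-3*, *exo-1* and *him-14*. *him-3* was at least 8.01-fold higher with baicalein than in water (adjusted p = 0.00163 from limma), *zim-2* 3.89-fold (0.00054) and *exo-3* 3.38-fold (0.00419). *exo-1* was 2.31-fold higher (0.00323), *zim-1* 1.84-fold (0.0487) and *him-14* at least 1.33-fold (0.00536). The call of *zim-1* was lost without baicalein replicate 1 or any DMSO or water array, and that of *him-14* without water replicate 2.

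The other 25 genes had log2 differences between baicalein and water of -0.42 to 0.65, with 95% intervals that reached from -1.0 to 1.54 at their widest, so moderate changes in either direction were not detectable with these arrays. *rad-23* had the narrowest interval, -0.37 to 0.39 around a difference of 0.01. Of the 10 members with roles in pairing, synapsis, breaks and crossovers, all 10 lay above 0 and 4 were called. Of the 21 others, 12 lay above 0 and 2 were called, but of the 31 members 9 lay below 0 in this fit, 5 after quantile normalization was applied again and 1 after cyclic loess normalization. The difference between these role groups was not tested.

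**Figure D2:**
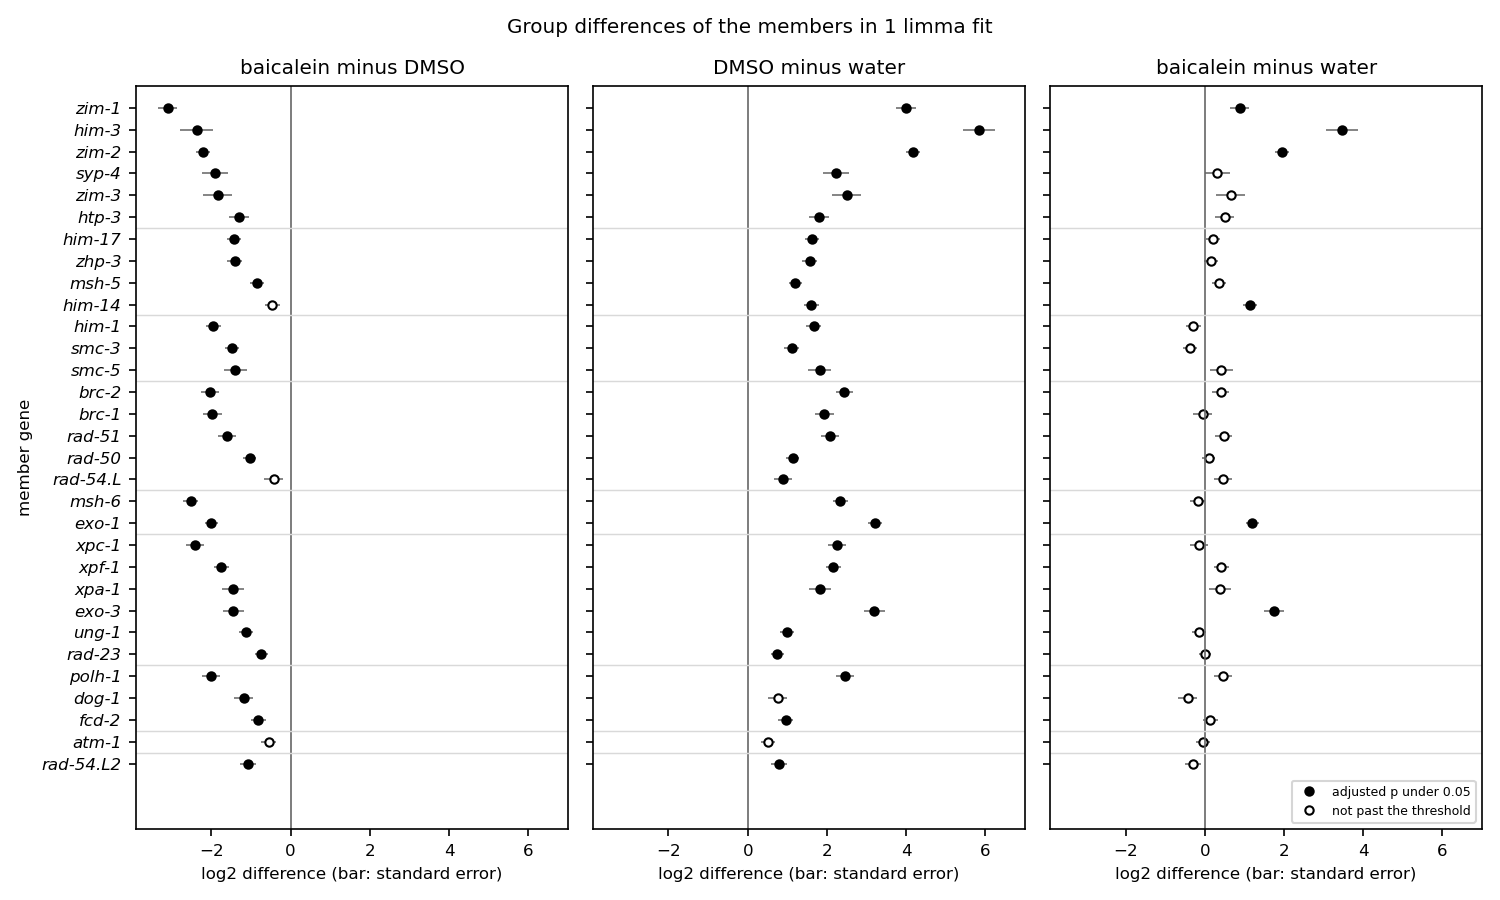
Log2 difference of each member (x axis) by gene (y axis) for baicalein minus DMSO, DMSO minus water and baicalein minus water, with bars for the standard error from limma. Filled points passed an adjusted p under 0.05, which 28, 29 and 6 of the 31 genes did, and grey lines part the roles.

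Other genes of the same pathways, taken from lists drawn up by function, lay the same way where the tables name them. Of 46 other repair genes, 21 are named. Of these, 16 were called lower with baicalein than with DMSO, with a median log2 difference of -1.71, and 18 were called higher in DMSO than in water, with a median of 1.62. The largest differences with baicalein were those of *rmh-2*, a scaffold of the helicase complex that dissolves joined DNA molecules (-2.69), *lig-1*, the DNA ligase of replication and repair (-2.36), and *wrn-1*, the Werner helicase (-2.34). Of 34 other meiosis genes, 15 are named, with 12 called lower with baicalein (median -1.51) and 14 called higher in DMSO than in water (median 2.10). Among them were *scc-1*, the kleisin of mitotic cohesin (-2.50), *dsb-2*, needed for meiotic breaks (-2.25), and *pch-2*, an ATPase that acts on axis proteins (-1.96). All of these names come from tables that list probe sets by their difference between groups, so the direction of a list is not independent evidence.

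The 4 named genes of condensin and dosage compensation, of 10 on that list, had a median of -2.14 with baicalein against DMSO (4 called lower), and the 4 named checkpoint genes, of 15, one of -1.26 (3 called lower). Of 37 DNA replication genes, 22 are named, with 19 called lower with baicalein (median -1.45) and 22 called higher in DMSO than in water (median 2.06). The corresponding medians of the members were -1.45 and 1.81.

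Markers of germ cells and oocytes took the same order as most members. The 5 named germ cell markers (of 8), among them *glh-2*, *pgl-3* and *mex-5*, had a mean signal, averaged on the linear scale, of 6.08 and 6.02 as log2 values with baicalein, 7.88 and 7.83 with DMSO and 3.88 and 3.54 in water. The 6 named oocyte markers (of 7) stood at 7.26 and 7.35 with baicalein, 8.78 and 8.73 with DMSO and 2.90 and 2.07 in water. The members, averaged the same way, stood at 3.41 and 3.06 with baicalein, 4.89 and 4.87 with DMSO and 2.74 and 2.82 in water. The means of the germ cell and oocyte lists were thus highest with DMSO, as that of the members was, and had a larger gap between baicalein and water. In the germ cell list *mex-5* and *gld-1* carried that gap, with log2 differences of 3.89 and 4.18, and *pgl-3* had 1.59. The differences of *glh-2* (0.63) and *nos-3* (0.03) did not pass the threshold (adjusted p = 0.115 and 0.938 from limma).

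The means of the sperm, muscle and molting lists took other orders. The 3 named sperm markers (of 6) stood at 7.01 and 6.94 with baicalein, 5.53 and 5.64 with DMSO and 1.80 and 1.55 in water. This mean was carried by *msp-57* and *msp-10*, genes of the major sperm protein, which were called higher with baicalein than with DMSO. *spe-44*, a transcription factor gene of sperm formation, was called lower, with 1.99 and 1.80 with baicalein, 3.65 and 2.93 with DMSO and 1.29 and 0.88 in water. The 4 body wall muscle markers stood at 7.51 and 7.40 with baicalein, 6.59 and 6.52 with DMSO and 6.91 and 6.96 in water. The brighter probe sets of *unc-54* and *unc-15* set that mean, whereas *myo-3* and *unc-22* had their highest values in water, with means of 3.22 and 1.85 with baicalein, 2.43 and 1.44 with DMSO and 3.87 and 3.15 in water. The 6 molting cuticle markers stood at 1.83 and 1.64 with baicalein, 1.48 and 1.60 with DMSO and 7.05 and 7.18 in water. The part of the cells marked by these lists in the members' differences was not tested.

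**Figure D3:**
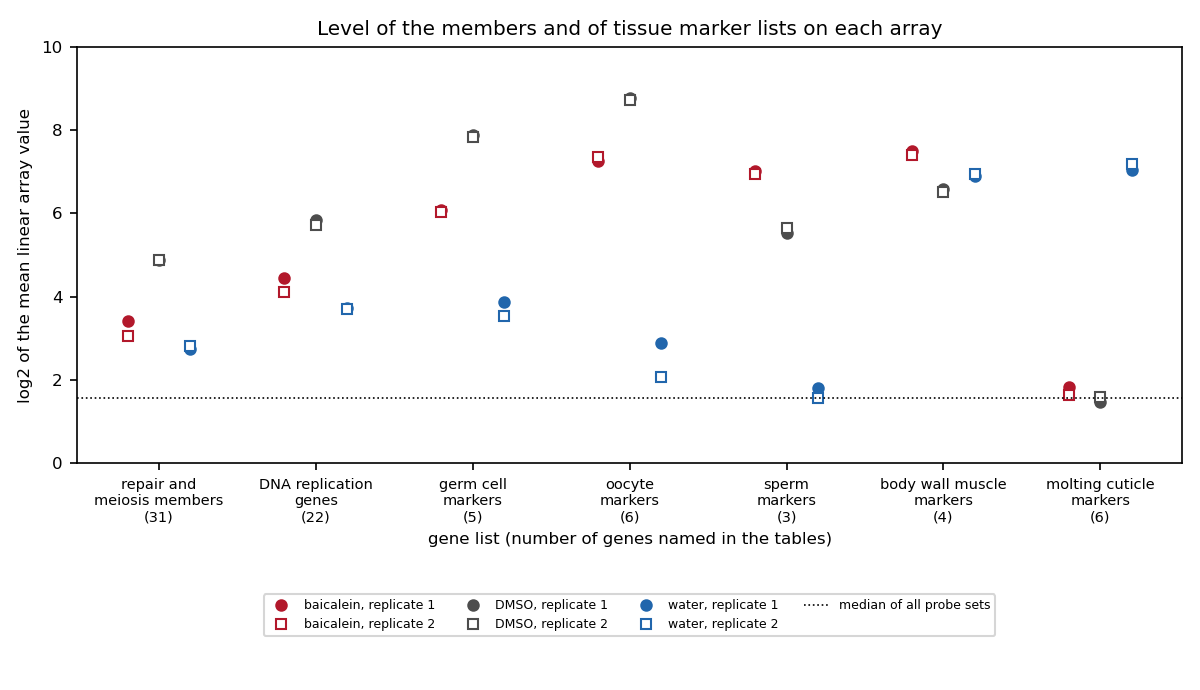
Mean signal of the members and of 6 gene lists (x axis, number of named genes in parentheses) on each array, averaged on the linear scale and plotted as log2 (y axis). Filled circles are replicate 1 and open squares replicate 2 of baicalein-treated (red), DMSO-treated (grey) and water-treated (blue) worms. The members, replication genes, germ cell markers and oocyte markers are highest with DMSO and molting markers in water. The means of the sperm and muscle lists are highest with baicalein, although *spe-44* was highest with DMSO and *myo-3* and *unc-22* in water.

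The replicates of the baicalein group differed in a common direction. In 26 of the 31 members baicalein replicate 1 was above replicate 2, with a median gap of 0.26, against 0.02 over all probe sets. The widest gap was that of *him-3*, 1.31. Among the DMSO arrays replicate 1 was the higher in 20 of 31 members (median gap 0.05), and among the water arrays in 10 of 31 (median gap -0.06). The members' median log2 difference of baicalein from DMSO was -1.68 without baicalein replicate 1 and -1.36 without baicalein replicate 2, against -1.45 with all arrays.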

How the data were processed

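RNA of whole worms was measured on Affymetrix GeneChip strips for *C. elegans* genes. The log2 values deposited by the authors were made, according to the methods, with RMA (background correction, log2 transformation and quantile normalization). Tool version, annotation and genome build are not given in the sources used here. Array medians lay between 1.42 and 1.59 and upper quartiles between 2.46 and 3.26, so the distributions were not identical between arrays. The authors' tables of baicalein against DMSO (3619 probe sets) and DMSO against water (1982) hold other fields, deposited by the authors, of which probe set, symbol and accession were read for names. Their p-values, ratios and fold changes were not used. Of 5392 probe sets listed, 4956 have a name. Of the 31 members, 27 matched RefSeq by accession, the rest by symbol, and 2 symbols were updated (*rad-54* and *rad-26*).

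limma 3.58.1 in R 4.3.3 fitted all 29317 probe sets, with residual and prior degrees of freedom of 3 and 3.51. Calls had a Benjamini-Hochberg adjusted p under 0.05. The code was tested on simulated data. Python 3.11.15 read the tables. The members and lists were chosen with earlier results of these data known. By rule, values per array were given for the 3 members of each role with the largest difference between baicalein and DMSO, the 3 members of all with the largest difference between DMSO and water in each direction, and any member called higher with baicalein than with DMSO, 22 genes, and the other 9 were added after their values were seen. Up to 3 genes per other list were named, by the largest difference between baicalein and DMSO, and *unc-22*, *gld-1* and *nos-3* after their values were seen. Alternatives were a variance trend, only the compared arrays, centring, repeated quantile and cyclic loess normalization, a filter on dim probe sets, a trial block, the methods' test and leaving out each array. No sequence was printed, as none was given for these genes.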

Additional observations from a re-analysis of the deposited data

How the results depend on the processing

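The members stayed below 0 for baicalein against DMSO and above 0 for DMSO against water under every alternative. All 31 were in each fit except the one without dim probe sets, which held 30. Of 28 members called lower with baicalein than with DMSO, 15 remained with only the arrays of the compared groups (1046 lower over all probe sets, against 2060) and 0 with the methods' test after adjustment (1 over all probe sets), which gave 30 at its unadjusted threshold (3025 over all). The calls of *smc-5*, *rad-23* and *ung-1* were lost under both renormalizations, and those of *zim-3* and *rad-54.L2* under repeated quantile normalization. Leaving out 1 array gave 0 to 26 (0 without DMSO replicate 1, as over all probe sets, where the remaining DMSO array is assumed to vary like the other groups), 25 to 29 called higher in DMSO than in water (29 with all arrays), and 4 to 8 called higher with baicalein than in water (6 with all arrays). That last count was 11 after quantile normalization was applied again, 15 after cyclic loess normalization and 3 with the methods' test after adjustment. The counts over all probe sets beside these are not given here. For DMSO against water the methods' test after adjustment called 21 members and 1549 of all probe sets higher, against 29 and 3183 with limma. Centring the arrays moved the median of all probe sets for DMSO against water from 0.09 to 0.20 and that of the members from 1.81 to 1.93. Centring, both renormalizations and the filter added a call of *dog-1*, and the renormalizations one of *atm-1*, for DMSO against water. Over all probe sets, calls for baicalein against DMSO were 507 higher and 2060 lower, 1276 and 1503 after repeated quantile normalization and 1403 and 1899 after cyclic loess normalization, so the background share moved with the scaling.

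For baicalein against water, small differences changed sign 19 times, counted for each gene under each alternative, so that some genes count more than once. None of these passed the threshold in either fit. After repeated quantile normalization the log2 differences became 0.38 for *him-1*, 0.46 for *msh-6*, -0.037 for *rad-50*, 0.40 for *rad-54.L2*, 0.57 for *ung-1* and 0.51 for *xpc-1*. After cyclic loess normalization they became 0.13 for *atm-1*, 0.51 for *brc-1*, 0.11 for *dog-1*, 0.30 for *msh-6*, 0.20 for *rad-54.L2*, 0.18 for *smc-3*, 0.36 for *ung-1* and 0.32 for *xpc-1*. Leaving out 1 array gave ranges of -0.17 to 0.090 for *atm-1* and -0.22 to 0.13 for *brc-1* (above 0 without water replicate 2), -0.031 to 0.32 for *fcd-2* and -0.0091 to 0.033 for *rad-23* (below 0 without water replicate 1), and -0.37 to 0.078 for *xpc-1* (above 0 without baicalein replicate 2). The cause was not tested.

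With the trial number as a replicate block, 26 members and 1941 of all probe sets were called lower with baicalein than with DMSO. The calls of *rad-23* and *fcd-2* were lost. In DMSO, 29 members and 3115 of all probe sets were called higher than in water. Between baicalein and water 5 members were called higher, and the call of *zim-1* was lost. The count over all probe sets is not given for that comparison. Deviations of same-numbered arrays correlated at 0.16 between baicalein and DMSO, -0.05 between DMSO and water and -0.07 between baicalein and water, so the numbers were not taken to pair the samples.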
